A study of Mus musculus with 18 samples.

Results

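Solute carriers are membrane proteins that move amino acids, sugars, nucleosides, ions, metals and vitamins across the cell surface and the membranes of lysosomes, mitochondria and the Golgi. The genes described here are the Slc genes with at least 1 read counted in every library of sorted mPFC (medial prefrontal cortex) microglia: 87 of the 368 Slc genes in the deposited table, which holds 22428 genes. These 87 genes were chosen by their detection in each library, so their presence and their overall level are given as a description with no test, and the comparisons between groups are the only tests. Microglia positive for CD11b, CD45 and P2ry12 had been sorted by flow cytometry at postnatal day 51 from C57BL6/J-background mice of 4 groups. WT-Veh (n = 6 libraries) are wild type mice given vehicle, and WT-THC (n = 4) are wild type mice given THC, the main psychoactive compound of cannabis, at 8 mg/kg by daily subcutaneous injection from postnatal day 30 to 51. 16p11dup-Veh (n = 4) and 16p11dup-THC (n = 4) carry a duplication of the mouse segment that corresponds to the human 16p11 region, a copy number change linked to psychiatric disorders, and received vehicle or THC in the same way. The duplication is present in every cell of these mice, not in microglia alone, and mice of every group were injected. The sources used here do not say that each library came from a separate mouse, so the tests measure the spread between libraries.

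Between 7045444 and 15459286 counts were assigned to genes in a library, and 72.47% to 81.81% of its reads were mapped. The deposited exon share was 31.92% to 37.81%, and the deposited intron share was higher, 63.41% to 69.22%. All 10 microglial markers examined, P2ry12, Tmem119 and Sall1 among them, were detected in every library, with a summed level of 18402 to 36680 CPM (read counts relative to the scaled size of the library). P2ry12, Itgam and Ptprc on this list are the genes of the sorting markers P2ry12, CD11b and CD45, so their detection is no independent check of the sort. The summed levels of other cell types were far lower in each library, at 0 to 126 CPM for 7 astrocyte genes, 6.37 to 104 CPM for 8 neuronal genes, 6.44 to 194 CPM for 7 oligodendrocyte genes, 0.369 to 229 CPM for 8 vascular genes, 0 to 183 CPM for 6 border macrophage genes and 0 to 190.1 CPM for 6 monocyte and neutrophil genes. In these lists 1 oligodendrocyte and 1 vascular gene were counted in every library, and Sox9, Tubb3, Cldn5, Ly6c2 and Plac8 were among the genes at 0 in all 18 libraries. Since these are bulk libraries of sorted cells, fewer cells with a transcript and fewer copies per cell cannot be told apart.

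Microglia are the resident macrophages of the brain and depend on solute carriers for several of their tasks. Amino acid carriers at the surface feed protein synthesis and glutathione, carriers in the lysosomal membrane return the products of digested cell debris to the cytosol, and metal carriers handle the iron, zinc and copper released from engulfed material. Slc2a5, a fructose transporter, is used widely as a microglial marker in brain tissue.

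The 87 genes fell into 11 substrate classes, set from the family number and the known substrate of each gene. Amino acid or peptide carriers were the most numerous with 17 of the 62 such genes in the table, followed by 16 of 29 transition metal or haem carriers, 13 of 61 inorganic ion carriers, 12 of 47 mitochondrial carriers and 9 of 26 nucleotide, nucleoside or nucleotide sugar carriers. Only 1 of 30 amine, creatine or choline carriers, 5 of 45 carboxylate, thyroid hormone or organic anion carriers, 6 of 29 sugar carriers, 3 of 11 vitamin or cofactor carriers and 3 of 12 orphans met the detection rule. The other 2 genes, Slc7a6os and Slc4a1ap, have Slc symbols for their chromosomal neighbours or a binding partner and are not transporters. To compare genes, levels are given per kb of exon length, averaged over the 18 libraries. On that scale Slc29a3 stood highest at 286 CPM per kb, and Slc7a8 at 172, Slc2a5 at 93.9, Slc3a2 at 87.7 and Slc25a5 at 80.4 CPM per kb came next. Slc29a3 ranked highest of the 87 in 15 of the 18 libraries and no lower than rank 2 in any of them. Slc7a8 ranked highest in 2 libraries and Slc35a4 in 1.

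**Figure D1:**
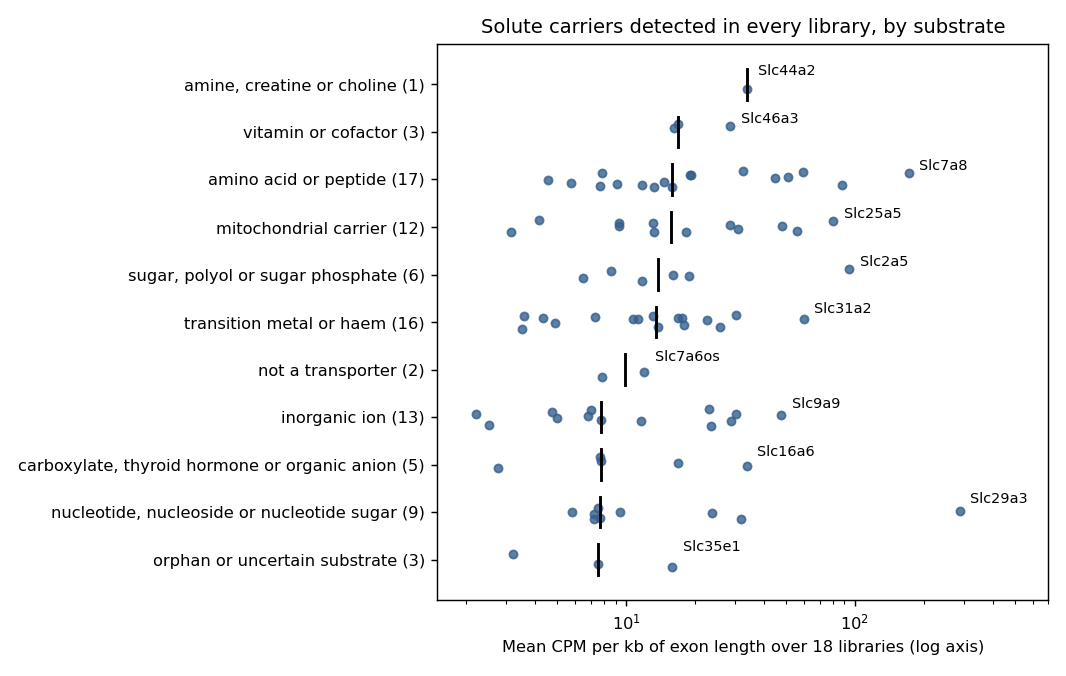
Mean level of each of the 87 carriers over 18 libraries, in CPM per kb of exon length on a log axis, by substrate class. Points are genes, black bars are class medians, numbers in brackets are genes per class, and the highest gene of each class is named; Slc29a3 at 286 and Slc7a8 at 172 CPM per kb stand apart at the right.

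Promoters are shown for the highest gene of 4 classes, Slc29a3, Slc7a8, Slc2a5 and Slc31a2, and for Slc36a1, which among the genes shown held the most matches to the motifs given below. The sequences are from RefSeq on GRCm38.p6 and run from 250 bases before to 50 bases after the annotated start site. They lie at chr10:60752733-60753032 on the minus strand, chr14:54781837-54782136 on the minus strand, and chr4:150119094-150119393, chr4:62286179-62286478 and chr11:55204090-55204389 on the plus strand. Capitals mark a match on either strand to GAGGAAG, the core of the site bound by the myeloid factor PU.1, to CCGGAAG, an ETS family core, to TCACGTG, the E-box core of the site that TFEB binds at lysosomal genes, or to TGACNNNGC, the core of the site bound by MAF and NRF2. GAGGAAG and CCGGAAG belong to related ETS sites, and the end of TCACGTG can overlap the start of TGACNNNGC.
Slc29a3: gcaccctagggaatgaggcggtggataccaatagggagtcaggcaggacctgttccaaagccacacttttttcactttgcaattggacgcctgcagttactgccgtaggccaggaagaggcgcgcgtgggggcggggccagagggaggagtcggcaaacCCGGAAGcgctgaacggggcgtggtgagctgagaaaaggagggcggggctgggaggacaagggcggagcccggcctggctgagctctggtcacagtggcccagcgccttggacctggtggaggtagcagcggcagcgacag
Slc7a8: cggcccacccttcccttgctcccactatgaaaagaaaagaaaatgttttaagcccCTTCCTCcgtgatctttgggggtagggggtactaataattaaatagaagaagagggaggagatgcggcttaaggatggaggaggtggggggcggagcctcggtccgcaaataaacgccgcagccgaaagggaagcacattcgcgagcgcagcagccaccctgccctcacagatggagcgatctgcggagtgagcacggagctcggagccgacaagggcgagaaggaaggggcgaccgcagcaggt
Slc2a5: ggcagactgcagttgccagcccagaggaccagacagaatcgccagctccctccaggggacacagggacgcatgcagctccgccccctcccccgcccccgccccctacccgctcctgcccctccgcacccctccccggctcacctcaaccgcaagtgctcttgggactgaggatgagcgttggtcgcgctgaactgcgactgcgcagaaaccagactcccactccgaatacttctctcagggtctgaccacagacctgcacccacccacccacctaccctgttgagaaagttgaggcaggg
Slc31a2: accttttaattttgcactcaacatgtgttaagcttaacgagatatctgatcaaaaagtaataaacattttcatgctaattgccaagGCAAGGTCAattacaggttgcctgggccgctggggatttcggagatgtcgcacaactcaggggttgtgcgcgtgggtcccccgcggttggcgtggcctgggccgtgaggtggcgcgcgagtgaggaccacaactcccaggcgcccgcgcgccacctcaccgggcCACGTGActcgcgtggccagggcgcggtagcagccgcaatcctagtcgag
Slc36a1: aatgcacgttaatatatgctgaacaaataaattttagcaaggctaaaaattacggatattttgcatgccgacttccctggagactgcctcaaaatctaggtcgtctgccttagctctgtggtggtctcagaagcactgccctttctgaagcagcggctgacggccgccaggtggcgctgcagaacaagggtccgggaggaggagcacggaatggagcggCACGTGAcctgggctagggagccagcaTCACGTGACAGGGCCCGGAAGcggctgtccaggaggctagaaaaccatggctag
In Slc29a3 the letters CCGGAAG begin -91 from the start site, and in Slc7a8 the letters CTTCCTC, which read GAGGAAG on the other strand, begin -195 from it. Slc2a5 holds none of these motifs. In Slc31a2, GCAAGGTCA, which reads as TGACNNNGC on the other strand, begins -164 from the start site, and CACGTGA begins at position 1. The promoter of Slc36a1 holds CACGTGA from -31, then TCACGTG on both strands from -4 and -3, TGACAGGGC from position 2 and CCGGAAG from position 11. Of the 66 carriers with a promoter in the RefSeq table, 16 (24.2%) held CCGGAAG, 15 (22.7%) TGACNNNGC, 11 (16.7%) GAGGAAG and 8 (12.1%) TCACGTG. Among 4259 genes with a promoter and a count in every library, the shares were 22.6%, 17.5%, 18.1% and 8.66%, and among all 27025 promoters they were 9.93%, 14%, 15.4% and 4.29%. These motifs were chosen after matches had been seen, from 6 searched, and a match is a stretch of letters and not a shown binding site.

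Amino acid carriers together made up the largest class by reads, with a summed level of 3371 ± 1080 CPM (SD, n = 18 libraries). Slc7a8 (chromosome 14, 54722209 to 54781946, GRCm38), the light chain LAT2 that exchanges large neutral amino acids, had 288 to 2458 CPM with a median of 704 in WT-Veh. Its libraries held 1116, 529, 1234 and 837 CPM in WT-THC, 784, 619, 843 and 605 CPM in 16p11dup-Veh and 630, 695, 1207 and 743 CPM in 16p11dup-THC. The groups overlapped in every comparison, and 1 WT-Veh library at 2458 CPM stood above all others. Slc3a2, the heavy chain CD98 that light chains such as LAT2 need to reach the cell surface, had 85 to 513 CPM with a median of 326 in WT-Veh. Values were 533, 201, 198 and 142 CPM in WT-THC, 313, 274, 701 and 315 CPM in 16p11dup-Veh and 73.9, 216, 396 and 295 CPM in 16p11dup-THC, and the groups again overlapped. Per kb, Slc7a8 exceeded its heavy chain in 15 of 18 libraries, with a median ratio of 1.82 and a range of 0.847 to 6.01.

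Slc6a6, the taurine transporter, was among the steadiest members. It had 229.9 to 576 CPM with a median of 357 in WT-Veh and 577, 701, 393 and 302 CPM in WT-THC, 239.6, 211, 762 and 555 CPM in 16p11dup-Veh and 336, 491, 373 and 459.8 CPM in 16p11dup-THC, so that each group spanned much the same range. Slc36a1, a proton-coupled amino acid transporter of the lysosome, had 310.4 to 666 CPM with a median of 394 in WT-Veh, and its libraries held 284, 203, 313 and 321 CPM in WT-THC, 372, 386, 12 and 384 CPM in 16p11dup-Veh and 294, 347, 97.9 and 387 CPM in 16p11dup-THC. A value of 12 CPM in 16p11dup-Veh library 14 lies far under the 3 other libraries of that group. Slc1a3, a glutamate transporter best known from astrocytes, was counted in every library, between 41.7 and 318 CPM. The astrocyte marker sums were 0 to 126 CPM, and the part of astrocytes in the level of Slc1a3 was not tested. At the lower end of the class were Slc38a6, of the glutamine and neutral amino acid family, at 4.55, the aromatic amino acid transporter Slc16a10 at 5.77 and Slc38a9 at 7.67 CPM per kb.

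Nucleoside and nucleotide sugar carriers summed to 2135 ± 600 CPM (SD, n = 18), most of it from Slc29a3 (chromosome 10, 60712072 to 60752794), the equilibrative nucleoside transporter ENT3 of lysosomes. Slc29a3 had 1119 to 2991 CPM with a median of 1534 in WT-Veh. Its libraries held 1207, 1806, 1828 and 1442 CPM in WT-THC, 1664, 920.2, 2090 and 1251 CPM in 16p11dup-Veh and 1132, 1525, 2676 and 2331 CPM in 16p11dup-THC. All groups overlapped, with group means of 1699 ± 688, 1571 ± 300.2, 1481 ± 507 and 1916 ± 711 CPM (SD) in the order WT-Veh, WT-THC, 16p11dup-Veh and 16p11dup-THC. Slc29a3 alone took 14.7% ± 3.98 (SD, n = 18) of the counts of the 87 genes. The remaining members serve the Golgi and endoplasmic reticulum, among them Slc35c2, linked to GDP-fucose, with 23.8 CPM per kb and Slc35b2, which imports the sulfate donor PAPS, with 9.41 CPM per kb.

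Slc2a5 (chromosome 4, 150119283 to 150144169), the fructose transporter GLUT5, led the sugar carriers. It had 211 to 699 CPM with a median of 318 in WT-Veh, and the other libraries held 288, 414, 190.1 and 334 CPM in WT-THC, 247, 206, 584 and 418 CPM in 16p11dup-Veh and 236, 169, 341 and 139.5 CPM in 16p11dup-THC. The 4 groups overlapped, with the lowest value, 139.5 CPM, in 16p11dup-THC and the highest, 699 CPM, in WT-Veh. Slc2a1, the glucose transporter GLUT1 that is abundant in vessels, varied from 0.399 to 255 CPM, beside vascular marker sums of 0.369 to 229 CPM, whose part in its level was not tested. Slc50a1, a sugar exporter of the SWEET family, and Slc37a2, a sugar phosphate antiporter of the endoplasmic reticulum found in macrophages, had 18.9 and 11.7 CPM per kb.

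Mitochondrial carriers of the Slc25 family summed to 1128 ± 257 CPM (SD, n = 18). Slc25a5, the ADP/ATP translocase ANT2 that exports ATP from the matrix, led them at 80.4 CPM per kb, and its paralogue Slc25a4, ANT1, had 18.3 CPM per kb. Slc25a45, which had 83 to 320.1 CPM with a median of 131 in WT-Veh and 101, 92.5, 247 and 89 CPM in WT-THC, 108, 103, 288 and 303 CPM in 16p11dup-Veh and 101, 163, 128 and 109 CPM in 16p11dup-THC, overlapped between all groups. Slc25a37, mitoferrin 1, brings iron into mitochondria and had 191 to 660.3 CPM with a median of 319.6 in WT-Veh, against 155, 584, 196 and 234 CPM in WT-THC, 116, 428, 242 and 142 CPM in 16p11dup-Veh and 177, 284, 243 and 116 CPM in 16p11dup-THC. Its groups overlapped too. Slc25a11, the oxoglutarate carrier, and Slc25a3, which imports phosphate for ATP synthesis, followed at 30.8 and 28.3 CPM per kb.

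Transition metal or haem carriers were detected in every library for 16 of 29 genes, the highest share of any class. The copper carrier Slc31a2, CTR2, stood highest at 59.7 CPM per kb but ranged from 2.85 to 289 CPM per kb between libraries. Slc11a1, NRAMP1, moves iron and manganese out of phagosomes and had 41.7 to 133 CPM with a median of 95 in WT-Veh. Its libraries held 49.2, 119, 61.8 and 93.5 CPM in WT-THC, 111, 33.2, 281 and 38 CPM in 16p11dup-Veh and 154, 81.9, 290.1 and 146 CPM in 16p11dup-THC, with overlap between all groups. Slc40a1, ferroportin, is the iron exporter of the cell surface and had 17.6 CPM per kb, close to the copper importer Slc31a1 at 17.9 CPM per kb. Zinc carriers made up 11 of the 16 genes: importers of the Slc39 family from Slc39a10 at 25.7 to Slc39a12 at 3.6 CPM per kb, and Slc30 carriers, which move zinc out of the cytosol, from Slc30a7 at 13.1 to Slc30a4 at 3.51 CPM per kb.

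Among inorganic ion carriers, Slc9a9, the endosomal sodium-proton exchanger NHE9, had 47.5 CPM per kb and the sodium-calcium exchanger Slc8a1, NCX1, 28.9 CPM per kb. Slc8a1 had 261 to 578 CPM with a median of 396 in WT-Veh and 569.5, 859, 507 and 564 CPM in WT-THC, 359.5, 439, 1580 and 342 CPM in 16p11dup-Veh and 718, 451, 546 and 453 CPM in 16p11dup-THC, where the value of 1580 CPM in 16p11dup-Veh library 14 exceeded its 3 neighbours at 342 to 439 CPM. The carboxylate and organic anion class was led by Slc16a6, MCT7, at 33.6 CPM per kb, the vitamin class by Slc46a3 at 28.4 CPM per kb, ahead of the ascorbate transporter Slc23a2 at 16.8 and the folate transporter Slc46a1 at 16.2 CPM per kb. Slc44a2, a choline transporter-like protein, was the only amine, creatine or choline carrier counted in every library, with 127 to 615 CPM with a median of 385 in WT-Veh.

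**Figure D2:**
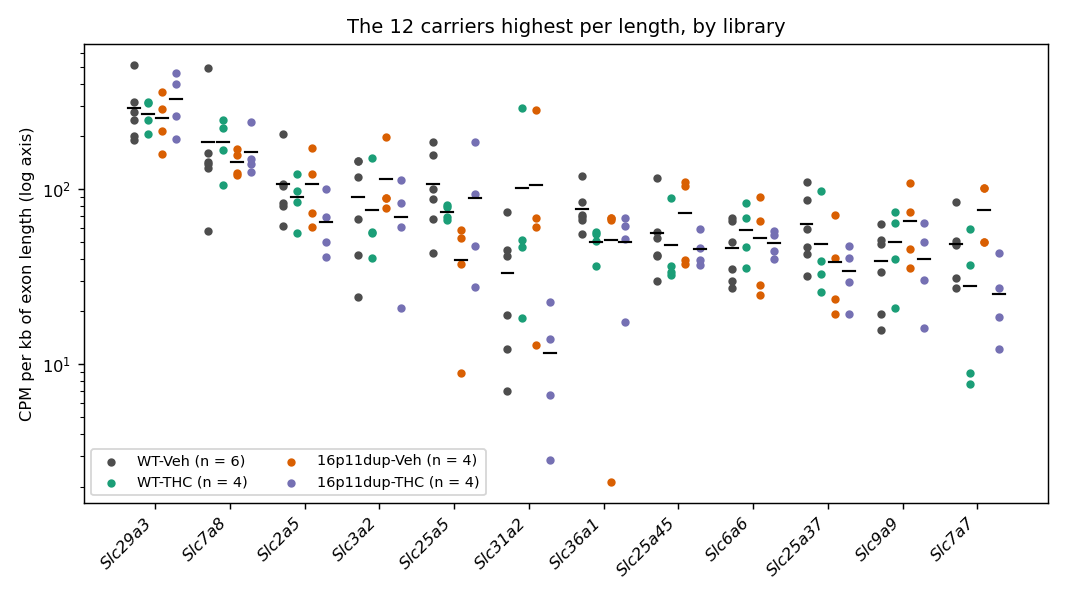
Level of the 12 carriers with the highest mean level per exon length, in CPM per kb on a log axis, with 1 point per library and black bars at the group means (WT-Veh n = 6, the other groups n = 4). Slc29a3 lies between 158 and 513 CPM per kb in all libraries, whereas Slc31a2 spreads from 2.85 to 289 CPM per kb.

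The carriers differed in spread as well as in level. The SD of log2 CPM over the 18 libraries was under 1 for 17 of the 87 genes and over 2 for 45. Slc29a3 had the lowest SD at 0.46, and Slc6a6 had 0.57 on the log2 scale. At the other end, Slc25a35 reached 3.59, Slc39a6 3.59 and Slc13a3, a sodium-dicarboxylate cotransporter, 3.23. Slc25a35, a mitochondrial carrier, had 0.129 to 368 CPM with a median of 12.1 in WT-Veh and 40.1, 2.04, 0.266 and 6.82 CPM in WT-THC, 1.27, 22.9, 0.138 and 52 CPM in 16p11dup-Veh and 40.5, 0.0920, 0.0919 and 2.06 CPM in 16p11dup-THC, so each group held libraries under 2 CPM beside libraries above 40 CPM. The median SD was 2.01 for the 87 carriers and 1.57 for all 5520 genes detected in every library. Taken within ranges of mean log2 CPM, it was 2.53 against 2.5 below 4, 2.04 against 1.79 between 4 and 6, and 0.9 against 0.94 from 6 upward. Across the 87 carriers, which share the same 18 libraries, SD and mean log2 CPM had a Spearman rho of -0.89, and across the 5520 genes it was -0.87.

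**Figure D3:**
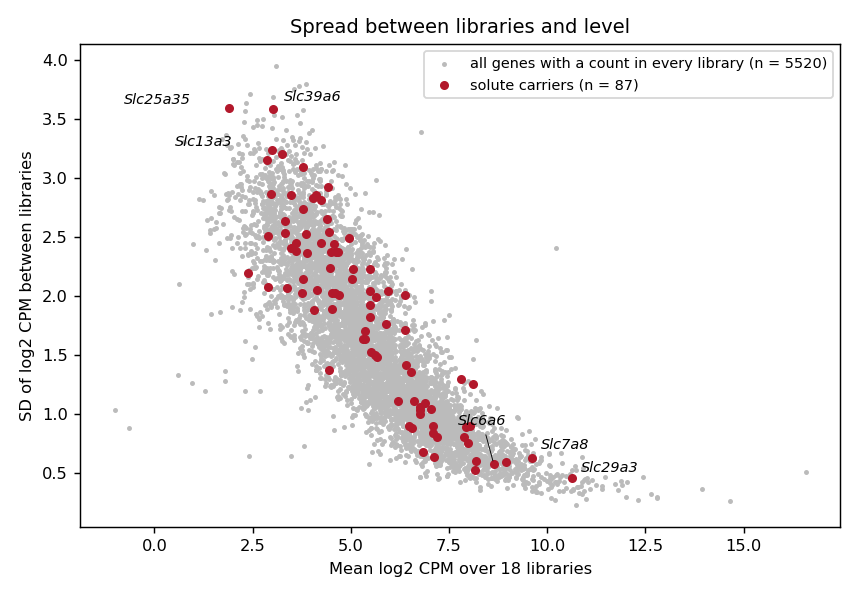
SD of log2 CPM between the 18 libraries against mean log2 CPM, with solute carriers in red (n = 87) and all genes with a count in every library in grey (n = 5520). The carriers lie within the grey band, from Slc29a3 at an SD of 0.46 to Slc25a35 at 3.59.

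The detection rule has a sharp edge at low counts. Among the 87 genes, 16 had under 2 counts in their lowest library, 43 had at least 10 counts and 25 at least 100 counts in every library. The zinc carriers Slc39a12 and Slc30a4 and the magnesium carrier family member Slc41a3 were just inside, each with 1 count in its lowest library. Just outside were the nucleoside transporter Slc29a1 (ENT1), the CMP-sialic acid transporter Slc35a1 and the GDP-fucose transporter Slc35c1, each at 0 in a single library (16p11dup-Veh 14, 16p11dup-THC 17 and WT-Veh 2, in that order) and counted in the other 17. In all, 23 Slc genes, these 3 included, were counted in exactly 17 libraries, 139 in 1 to 16 libraries, and 119 in none. Members with fewer than 10 counts numbered 0 to 13 per WT-Veh library, 0 to 18 per WT-THC library, 0 to 9 per 16p11dup-Veh library and 6 to 8 per 16p11dup-THC library. Carriers lay on every chromosome from 1 to 19 and on X except chromosome 7, which holds 13 Slc genes, none of them counted in every library, and which carries the duplicated segment in this mouse line.

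The summed level of the 87 genes was 11813 ± 2856 CPM in WT-Veh (SD, n = 6), 10699 ± 1098 CPM in WT-THC, 11439 ± 3046 CPM in 16p11dup-Veh and 11274 ± 1545 CPM in 16p11dup-THC (SD, n = 4 each), and the groups overlapped. For single genes, 6 comparisons were made, 5 between groups and the interaction of THC with 16p11dup. Each was tested on log2 CPM over all 22428 genes with limma, with the share of reads mapped as a covariate, and Benjamini-Hochberg adjustment ran over all genes. No carrier reached an adjusted p under 0.10 in any comparison with limma or with edgeR, and DESeq2 gave 1, 0, 3, 4, 3 and 5 such carriers in the order of the comparisons below. The share of all genes that DESeq2 called is not given here, so these DESeq2 counts cannot be read against a background. The smallest adjusted p of a carrier with limma was 0.744. Genes are therefore described at an unadjusted p under 0.05, at which 1, 3, 5, 4, 9 and 4 of the 87 carriers stood, which is not a call after adjustment over 22428 genes. Each count is read against the share of all 5520 genes detected in every library that passed the same p. Comparisons that share a group of libraries are not independent of each other.

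**Figure D4:**
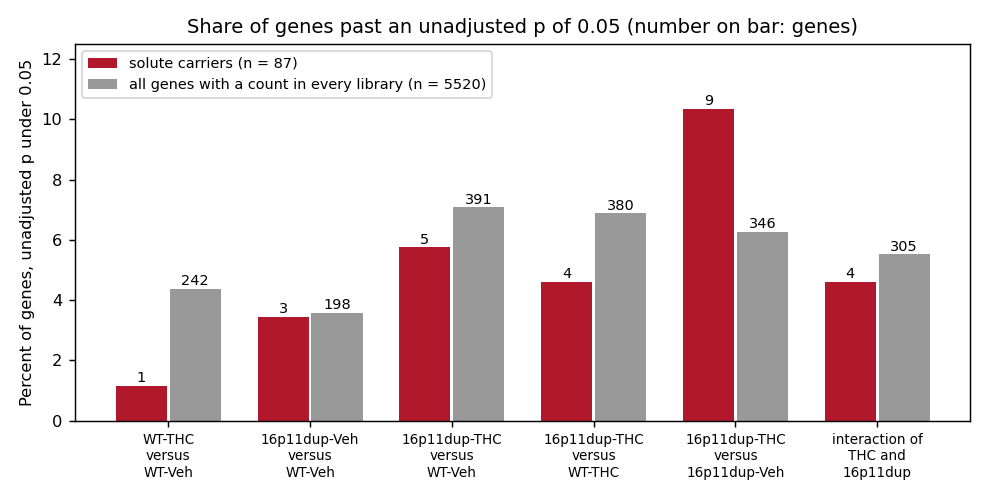
Percentage of genes with an unadjusted limma p under 0.05 in each of the 6 comparisons, for the 87 carriers in red and for the 5520 genes with a count in every library in grey, with the number of genes above each bar. The carriers' share is lower than or near the grey bar except for 16p11dup-THC versus 16p11dup-Veh, with 9 carriers.

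THC alone was addressed by WT-THC against WT-Veh. A log2 fold change above 0 was fitted for 39 carriers and below 0 for 48, with a median of -0.08 against 0.03 for genes detected in every library. A single carrier had an unadjusted p under 0.05, 1.15% of the 87, beside 4.38% of the background genes in either direction, 2.48% in the lower and 1.9% in the higher direction. It was Slc22a17, a receptor for the iron-binding protein lipocalin 2, which had 6.77 to 116 CPM with a median of 38.7 in WT-Veh. The libraries held 2.14, 12.7, 0.266 and 14.1 CPM in WT-THC, 1.04, 33.8, 9.50 and 3.41 CPM in 16p11dup-Veh and 109.5, 27.6, 11.9 and 104 CPM in 16p11dup-THC. Of the 4 WT-THC libraries, 2 lay under all WT-Veh libraries and 2 within their range, and the log2 fold change was -3.22 ± 1.18 (SE), unadjusted p = 0.0159, exact permutation p = 0.0238. Without WT-THC library 9, at 0.266 CPM, it was -1.94 with unadjusted p = 0.114, and p also exceeded 0.05 without WT-THC library 7. No carrier separated the 2 groups, while 0.399% of the background genes did so upward and 0.38% downward.

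16p11dup alone was addressed by 16p11dup-Veh against WT-Veh, where 48 carriers were fitted above 0 and 39 below. The median log2 fold change was 0.21, and 0.02 for genes detected in every library. The 3 carriers under p 0.05 made up 3.45%, against 3.59% of the background, with 2 higher (background 1.61%) and 1 lower (1.97%). Slc25a5, the ADP/ATP carrier, had 71.3 to 306 CPM with a median of 154 in WT-Veh and 114, 110.1, 134 and 129.9 CPM in WT-THC, 95.6, 86.8, 14.6 and 61.2 CPM in 16p11dup-Veh and 45.7, 305, 77.7 and 154 CPM in 16p11dup-THC. Its 16p11dup-Veh values overlapped the lower end of WT-Veh. The fitted difference on the log2 scale was -1.51 ± 0.53 (SE), unadjusted p = 0.0121, exact permutation p = 0.0238, and p stayed under 0.05 without any 1 library.

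Slc38a2, the neutral amino acid transporter SNAT2 that is known to respond to amino acid shortage, had 4.19 to 92.5 CPM with a median of 46.7 in WT-Veh. Values of 45.7, 101, 326 and 106 CPM in WT-THC, 94.7, 136, 227 and 116 CPM in 16p11dup-Veh and 290.1, 197, 78.1 and 82.3 CPM in 16p11dup-THC were found in the other groups. It was the only carrier whose 16p11dup-Veh libraries all lay above all WT-Veh libraries, by the narrow gap from 92.5 to 94.7 CPM; 0.417% of the background genes separated in that direction. The log2 fold change was 1.69 ± 0.74 (SE), unadjusted p = 0.0377, exact permutation p = 0.0238, and p exceeded 0.05 without WT-Veh libraries 1 or 3 or 16p11dup-Veh libraries 13, 14 or 16. With the 5 deposited surrogate variables, estimates of variation that the groups do not model, added to the fit the value was 0.78 with unadjusted p = 0.191. Slc46a3, a lysosomal carrier, had 0.739 to 69.5 CPM with a median of 37.2 in WT-Veh and 114, 50.3, 63.4 and 19.1 CPM in WT-THC, 151, 91.4, 34.6 and 241 CPM in 16p11dup-Veh and 35.3, 61.8, 92 and 93 CPM in 16p11dup-THC. Its groups overlapped, with a fitted difference of 2.23 ± 0.99 (SE), unadjusted p = 0.0396, exact permutation p = 0.0857, and without WT-Veh library 2, at 0.739 CPM, the difference was 1.5. Its p exceeded 0.05 without WT-Veh library 1 or 16p11dup-Veh libraries 12, 13 or 16.

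16p11dup-THC against WT-Veh set both factors together against neither. The fit gave 47 carriers above 0 and 40 below, with a median of 0.07 beside 0.06 for the background genes. At an unadjusted p under 0.05 stood 5 carriers (5.75%; background 7.08%), 3 higher (background 3.41%) and 2 lower (3.68%), and none separated the groups (background 0.562% higher and 0.417% lower). Slc4a2, the chloride-bicarbonate exchanger AE2, had 19.2 to 238 CPM with a median of 30.7 in WT-Veh, and the libraries of the other groups held 52.6, 50.7, 0.664 and 3.59 CPM in WT-THC, 1.5, 7.76, 12.7 and 66 CPM in 16p11dup-Veh and 2.81, 0.460, 0.184 and 27.5 CPM in 16p11dup-THC. Of the 16p11dup-THC libraries, 3 lay under all WT-Veh libraries and 1 within their range, and the fitted log2 difference was -4.83 ± 1.56 (SE), unadjusted p = 0.00736, exact permutation p = 0.0191. With the 5 surrogate variables added it was -2.10 with unadjusted p = 0.225. Slc4a7, the sodium-bicarbonate cotransporter NBCn1, had 24.1 to 158 CPM with a median of 73.3 in WT-Veh and 109, 73.5, 118 and 129 CPM in WT-THC, 127, 107, 53.3 and 49.4 CPM in 16p11dup-Veh and 66.6, 236, 252 and 146 CPM in 16p11dup-THC. It differed in the other direction, by 1.43 ± 0.48 (SE), unadjusted p = 0.00921, exact permutation p = 0.0667, with overlapping groups.

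Slc35a4, a Golgi carrier of the nucleotide sugar family, had 52.4 to 726 CPM with a median of 80.8 in WT-Veh, and the other groups held 3.61, 116, 51.9 and 23.1 CPM in WT-THC, 34.5, 74.7, 6.20 and 218 CPM in 16p11dup-Veh and 52.5, 0.828, 81.3 and 46.5 CPM in 16p11dup-THC. The fitted log2 fold change for 16p11dup-THC against WT-Veh was -3.08 ± 1.02 (SE), unadjusted p = 0.00848, exact permutation p = 0.0809. It rested on library 18 at 0.828 CPM, without which it was -1.76 with unadjusted p = 0.1. Slc39a12, the zinc importer ZIP12, had 0.129 to 23 CPM with a median of 0.960 in WT-Veh and 7.37, 2.04, 9.83 and 8.58 CPM in WT-THC, 21.8, 20.3, 5.51 and 2.46 CPM in 16p11dup-Veh and 18.1, 20.9, 5.61 and 39.8 CPM in 16p11dup-THC. Its groups overlapped at low counts, and the difference was 3.49 ± 1.19 (SE), unadjusted p = 0.0102, exact permutation p = 0.0524. Slc25a46, a protein of the mitochondrial outer membrane that acts in fusion and fission, had 0.246 to 32 CPM with a median of 24.7 in WT-Veh and 183, 9.24, 52.3 and 43.5 CPM in WT-THC, 94.7, 42.3, 25.5 and 16.4 CPM in 16p11dup-Veh and 72.1, 20.1, 191 and 50.4 CPM in 16p11dup-THC, and differed by 3.14 ± 1.27 (SE), unadjusted p = 0.0265, exact permutation p = 0.1. The 2 WT-Veh libraries at 0.647 and 0.246 CPM, WT-Veh 1 and 2, were far under the other 4, and without library 2 the value was 2.31, and with the 5 surrogate variables added it was 1.14 with unadjusted p = 0.354. For Slc25a46, p exceeded 0.05 without WT-Veh library 1 or 16p11dup-THC libraries 20 or 21.

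Genotype under THC was addressed by 16p11dup-THC against WT-THC, with 44 carriers fitted above 0 and 43 below and a median of 0.08 against 0.03 in the background. The 4 carriers under p 0.05 (4.6%; background 6.88%) were Slc22a17 and Slc35f6 with higher values (background 3.46%) and Slc31a2 and Slc37a2 with lower values (3.42%). Slc31a2, the copper carrier, had 14.2 to 149.5 CPM with a median of 61.6 in WT-Veh, and its libraries held 105, 37.4, 588 and 94.9 CPM in WT-THC, 139.6, 123, 573 and 26 CPM in 16p11dup-Veh and 46, 13.5, 5.79 and 28.5 CPM in 16p11dup-THC. In 16p11dup-THC no library exceeded 46 CPM, whereas 3 of the 4 libraries in each of WT-THC and 16p11dup-Veh lay at 94.9 CPM or above. The log2 fold change against WT-THC was -2.83 ± 1.03 (SE), unadjusted p = 0.0149, exact permutation p = 0.0571. It was -1.84 with unadjusted p = 0.107 without WT-THC library 9, at 588 CPM, and p also exceeded 0.05 without 16p11dup-THC library 20.

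Slc37a2, the macrophage sugar phosphate antiporter, had 7.63 to 218 CPM with a median of 38.2 in WT-Veh. Its libraries held 102, 100, 228 and 51.2 CPM in WT-THC, 40.3, 71.8, 221 and 116 CPM in 16p11dup-Veh and 27, 16.2, 25 and 15.2 CPM in 16p11dup-THC. All 16p11dup-THC libraries lay under all WT-THC libraries and under all 16p11dup-Veh libraries. The difference from WT-THC was -2.17 ± 0.84 (SE), unadjusted p = 0.0212, exact permutation p = 0.0286, which is the smallest value the exact test can give for 4 against 4 libraries. Without WT-THC library 9 it was -1.5 with unadjusted p = 0.124, and p also exceeded 0.05 without 16p11dup-THC library 18. Slc39a7, the zinc carrier ZIP7 of the endoplasmic reticulum, also separated the groups downward, with a fitted difference of -2.21 and unadjusted p = 0.154, and these 2 of 87 compare with 1.58% of the background genes; 1.39% of the background and no carrier separated upward. Slc22a17 was higher in 16p11dup-THC than in WT-THC by 3.55 ± 1.34 (SE), unadjusted p = 0.0187, exact permutation p = 0.0857, with overlap, and by 1.98 with unadjusted p = 0.158 without WT-THC library 9. Slc35f6, whose substrate is uncertain, had 4.05, 1.29, 0.664 and 21.2 CPM in WT-THC, 84.2, 59.8, 77.7 and 42.1 CPM in 16p11dup-Veh and 18.3, 30.7, 4.69 and 8.70 CPM in 16p11dup-THC, and its difference of 2.53 ± 1.16 (SE), unadjusted p = 0.0449, exact permutation p = 0.143 kept p under 0.05 in only 5 of the 18 fits that left out 1 library.

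The most carriers under p 0.05 were found between 16p11dup-THC and 16p11dup-Veh, the effect of THC on the duplication background. Fitted values were above 0 for 40 carriers and below 0 for 47, with a median of -0.16 against 0.05 in the background. Of the 87, 9 had an unadjusted p under 0.05 (10.3%; background 6.27%), 3 higher (background 2.99%) and 6 lower (3.28%). The higher ones were Slc16a6, Slc4a7 and Slc35e1, and the lower ones Slc39a6, Slc31a2, Slc37a2, Slc7a7, Slc35a4 and Slc44a2. Leaving out 1 library at a time moved the 9 to between 5 and 14. Both groups were fully apart for 3 carriers upward, Slc16a6, Slc16a7 and Slc25a3 (background 1.27%), and for 4 downward, Slc39a6, Slc37a2, Slc7a7 and Slc35f6 (background 1.5%).

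Slc39a6, the zinc importer ZIP6, showed the widest gap. It had 0.123 to 247 CPM with a median of 17.6 in WT-Veh and 17.2, 111, 0.399 and 14.2 CPM in WT-THC, 16.6, 41.6, 296 and 159 CPM in 16p11dup-Veh and 1.74, 0.736, 0.367 and 0.761 CPM in 16p11dup-THC. In 16p11dup-THC all 4 libraries lay at 1.74 CPM or under, on low counts of 13, 8, 4 and 7. The WT-Veh libraries covered both ranges. The log2 fold change was -5.41 ± 1.89 (SE), unadjusted p = 0.0119, exact permutation p = 0.0286, and without 16p11dup-THC library 18 it was -4.40 with unadjusted p = 0.0619. Slc39a6 overlaps Elp2 on the opposite strand, and strand was not used in the counting, so reads of the 2 genes cannot be told apart where they overlap, although its counts were whole numbers in all 18 libraries. The same holds for Slc4a2, Slc35a4 and Slc25a46, which overlap a gene on the opposite strand and had whole counts in every library. Slc31a2 differed from 16p11dup-Veh by -2.78 ± 1.03 (SE), unadjusted p = 0.0168, exact permutation p = 0.0857, with overlap, and p exceeded 0.05 without 16p11dup-THC library 20. Slc37a2 differed by -2.08 ± 0.85 (SE), unadjusted p = 0.0272, exact permutation p = 0.0286, with no overlap, and p exceeded 0.05 without 16p11dup-Veh libraries 14 or 16 or 16p11dup-THC library 18.

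Slc16a6, the monocarboxylate carrier family member MCT7, had 47.9 to 213 CPM with a median of 102 in WT-Veh, and values of 194, 73, 358 and 81.5 CPM in WT-THC, 26.6, 196, 81.1 and 84.2 CPM in 16p11dup-Veh and 253, 204, 314 and 339 CPM in 16p11dup-THC were measured in the other groups. The 16p11dup-THC libraries, from 204 CPM up, were all above the 16p11dup-Veh libraries, from 196 CPM down. The log2 fold change was 1.58 ± 0.66 (SE), unadjusted p = 0.0293, exact permutation p = 0.0286, and without 16p11dup-Veh library 12, at 26.6 CPM, it was 1.18 with unadjusted p = 0.0755. Without 16p11dup-Veh library 16 or 16p11dup-THC libraries 20 or 21, p was over 0.05 too. Slc16a7, the pyruvate and lactate carrier MCT2, had 27.3, 34.2, 1.10 and 4.45 CPM in 16p11dup-Veh and 35, 39.5, 146 and 46 CPM in 16p11dup-THC, with a fitted difference of 2.63 ± 1.40 (SE), unadjusted p = 0.0805, exact permutation p = 0.0286. Slc25a3, the mitochondrial phosphate carrier, had 129, 114, 131 and 38.7 CPM against 146, 162, 150.1 and 233 CPM and a difference of 0.90 ± 0.62 (SE), unadjusted p = 0.167, exact permutation p = 0.0286. For both the exact test is at its minimum while the limma p is over 0.05. Slc16a6 overlaps Amz2 and Arsg on the opposite strand, and its counts were not whole numbers in 15 libraries.

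Slc7a7, the light chain y+LAT1 that exports basic amino acids together with CD98, had 90.2 to 281 CPM with a median of 161 in WT-Veh, and its libraries held 122, 25.5, 29.4 and 195 CPM in WT-THC, 166, 166, 335 and 338 CPM in 16p11dup-Veh and 61.9, 40.5, 142 and 90.7 CPM in 16p11dup-THC. All 16p11dup-THC libraries, at 142 CPM and under, lay below the 16p11dup-Veh libraries, at 166 CPM and over. The log2 fold change was -1.49 ± 0.64 (SE), unadjusted p = 0.0345, exact permutation p = 0.0286. It was -0.87 with unadjusted p = 0.23 without 16p11dup-THC library 18, and p also exceeded 0.05 without 16p11dup-THC library 17 or 16p11dup-Veh libraries 14 or 16. Slc7a7 overlaps Oxa1l on the opposite strand and had counts that were not whole in 16 libraries. Its partner Slc3a2 and the LAT2 light chain Slc7a8 had fitted values of -0.58 and 0.23 in the same comparison, with p of 0.38 and 0.621 and overlapping groups.

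Slc35e1, an orphan of the nucleotide sugar family, had 37.4 to 119 CPM with a median of 53.9 in WT-Veh and 112, 6.02, 7.31 and 126 CPM in WT-THC, 13.9, 51.7, 24.9 and 14.4 CPM in 16p11dup-Veh and 95.2, 25.8, 253 and 161 CPM in 16p11dup-THC. The 16p11dup groups overlapped, with a difference of 2.32 ± 1.00 (SE), unadjusted p = 0.0351, exact permutation p = 0.0571, and p was under 0.05 in 10 of the 18 fits without 1 library, with a value of 3.66 without 16p11dup-THC library 18. Slc44a2, the choline transporter-like protein, had 198, 203, 561 and 508 CPM in 16p11dup-Veh and 91.9, 313, 130.4 and 103 CPM in 16p11dup-THC, which overlap, with a difference of -1.26 ± 0.57 (SE), unadjusted p = 0.0438, exact permutation p = 0.114. Its p was under 0.05 in 7 of the 18 fits without 1 library, and the value was -2.04 without 16p11dup-THC library 18. Slc4a7 differed by 1.27 ± 0.52 (SE), unadjusted p = 0.0284, exact permutation p = 0.114, and p was over 0.05 without 16p11dup-Veh libraries 14 or 16 or 16p11dup-THC libraries 18 or 20. For Slc35a4 the fitted difference of -2.60 ± 1.12 (SE), unadjusted p = 0.0349, exact permutation p = 0.629 was -1.19 with unadjusted p = 0.295 without 16p11dup-THC library 18, and p was over 0.05 without 16p11dup-Veh libraries 13 or 16 or 16p11dup-THC library 21. Without the mapped-read covariate it was -1.53 with unadjusted p = 0.304.

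The interaction, which tests whether the THC effect differs between genotypes, was fitted above 0 for 33 carriers and below 0 for 54, with a median of -0.30 against 0.02 in the background. The 4 carriers under p 0.05 (4.6%; background 5.53%) were Slc22a17 and Slc35e1 with positive values (background 2.63%) and Slc31a2 and Slc37a2 with negative values (2.9%). Slc22a17 had the largest value, 5.99 ± 1.82 (SE), unadjusted p = 0.00508. Its values were lower under THC in wild type and higher under THC in 16p11dup. Without WT-THC library 9 its interaction was 4.22 with unadjusted p = 0.0288. That library had the lowest mapped share, 72.47%, and the most carriers under 10 counts, 18. Slc37a2 had -3.36 ± 1.14 (SE), unadjusted p = 0.01, and -2.61 with unadjusted p = 0.0454 without library 9. Slc31a2 had -3.98 ± 1.39 (SE), unadjusted p = 0.0118, which without WT-THC library 9 was -2.88 with unadjusted p = 0.0565. For Slc37a2 and Slc31a2, WT-THC libraries had higher means of log2 CPM than WT-Veh and 16p11dup-THC lower means than 16p11dup-Veh. Slc35e1 had 3.03 ± 1.34 (SE), unadjusted p = 0.04, with p under 0.05 in 8 of the 18 fits without 1 library.

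**Figure D5:**
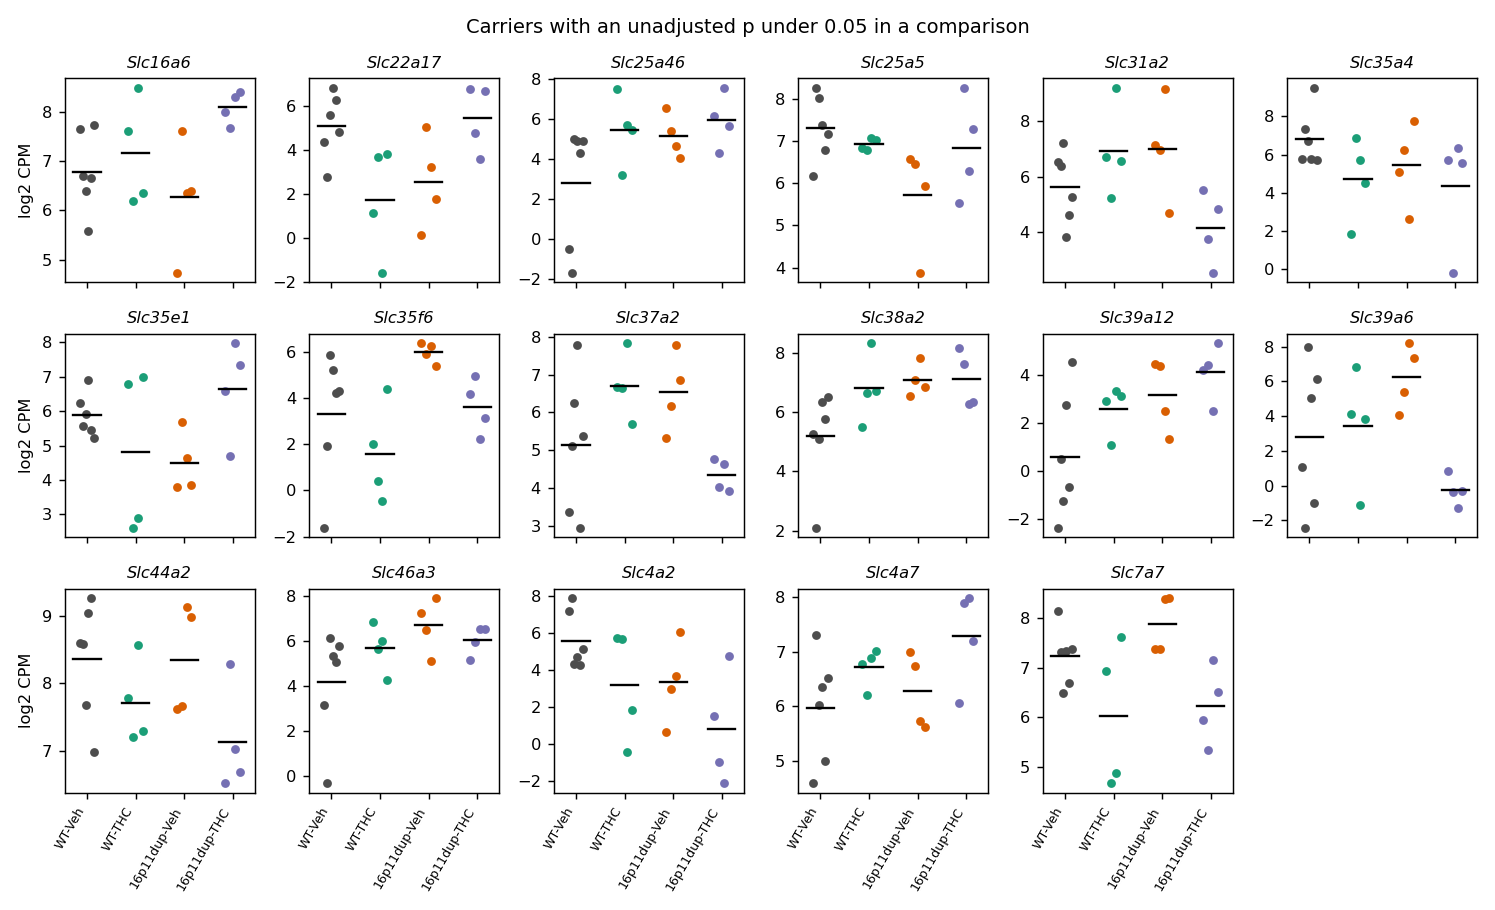
Log2 CPM of the 17 carriers with an unadjusted p under 0.05 in a comparison between groups, with 1 point per library and black bars at the group means (WT-Veh n = 6, the other groups n = 4). In Slc37a2 the 4 16p11dup-THC points lie under all WT-THC and 16p11dup-Veh points, and in Slc39a6 they lie between 0.367 and 1.74 CPM. Axes differ between panels.

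By class, the carriers under p 0.05 in 16p11dup-THC against 16p11dup-Veh were spread over 8 classes, with at most 2 in any, the metal carriers Slc39a6 and Slc31a2. In that comparison the median log2 fold change was -0.16 for all 87 carriers. It was -0.20 for the 17 amino acid, -0.08 for the 16 metal, -0.48 for the 13 ion and 0.36 for the 9 nucleotide carriers. The 12 mitochondrial carriers had -0.39, the 6 sugar carriers -0.72 and the 5 carboxylate or organic anion carriers 1.58. The smallest classes had -0.42 for 3 vitamin carriers, -1.505 for 3 orphans, -1.26 for Slc44a2 and 1.62 for the 2 genes that are not transporters. A group of carriers of the lysosomal membrane was chosen by hand after their values had been seen. It is not a full list of such carriers and leaves out Slc31a2. The 8 genes in it are Slc29a3, Slc36a1, Slc38a9, Slc38a7, Slc15a3, Slc15a4, Slc11a1 and Slc46a3. Their median log2 values were -0.15, -0.38, 0.42, 0.77 and 0.34 in the 5 comparisons between groups in the order given above. In the interaction the median was 0.97. Above 0 were 3, 2, 5, 6, 6 and 6 of the 8, and the others lay below. A single carrier, Slc46a3, was under p 0.05 in 16p11dup-Veh against WT-Veh, and none in the other comparisons. The omitted Slc31a2 had a fitted value of opposite sign to the group's median in all 6 comparisons. Since the 8 genes were picked with their values known, that choice alone can give such medians and counts. The medians and counts are a description and not evidence of a shared shift, and no background share was set beside them. Among the 281 other Slc genes, of which 162 had any count, 6, 3, 5, 9, 8 and 5 had an unadjusted p under 0.05 in the 6 comparisons. Among 77 transporters outside the Slc symbols, ABC transporters and others, 1, 2, 4, 4, 2 and 1 did. As shares of genes with any count, these were 3.704, 1.852, 3.086, 5.556, 4.938 and 3.086% of the 162 Slc genes. For the 59 other transporters with any count they were 1.695, 3.39, 6.78, 6.78, 3.39 and 1.695%. All genes with any count passed at 4.075, 3.638, 5.529, 5.801, 5.156 and 4.583%. None of these other Slc genes and transporters reached an adjusted p under 0.10 with limma.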

How the data were processed

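RNA-seq of sorted mPFC microglia was analysed in 18 libraries of 4 groups (WT-Veh, WT-THC, 16p11dup-Veh and 16p11dup-THC), grouped by their labels. The authors ran RSEM 1.3.0 with STAR alignment to GRCm38, ignoring strand, and left out 4 libraries as outliers, which are not analysed here. The annotation version is not given in the sources used here, and these name both Smart-seq2 and a Nugen Ovation low-input kit.

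The deposited log2 CPM values follow the voom formula, with 0.5 counts added. The lowest value of a library is a count of 0, from which expected counts were recovered in steps of 0.01 (94.3% of the non-zero ones whole within 0.005). The numbers of reads per library are deposited counts, and the mapped, exon and intron shares are deposited fractions. The 5 surrogate variables are scores deposited by the authors.

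Solute carriers are rows whose symbol starts with Slc and a number and whose value exceeds the lowest of its library in all 18 libraries. Members, substrate classes, motifs and tests were chosen with earlier results of these data known, and the lysosomal group after its values were seen. Named genes are the 3 highest per length in each class, carriers with an unadjusted p under 0.05 (at most 5 per direction and comparison), the 3 lowest and 3 highest in spread, and 3 on each side of the detection limit, of which 1 gene is not reported here. Carriers that separated 2 groups, Slc carriers cited for their role or place in a class, and Slc44a2 in the last comparison of 2 groups were named after their values were seen. Log2 CPM was fitted in limma 3.58.1 with voom weights computed without the design, 4 groups and the mapped-read percentage as terms, eBayes moderation and two-sided tests. Adjustment was by Benjamini-Hochberg over all 22428 genes (threshold 0.10), and each of the 6 comparisons had its own coefficient. Exact permutation tests of the difference in mean log2 CPM were two-sided, with a smallest p of 0.0286 for 4 against 4 libraries and 0.00476 for 4 against 6. Exon lengths are unions of GENCODE exons on GRCm38. The alternatives were edgeR 4.0.16 (quasi-likelihood) and DESeq2 1.42.0 on recovered counts after rounding, no voom weights, no covariate, the surrogate variables added, total count scaling, 2 counts added, only genes with a count in every library, and leaving out each library. The code was tested on simulated data.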

Additional observations from a re-analysis of the deposited data

Results flagged for a closer look

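Of 172 groups of values, 4 for each of 43 named carriers, 11 held a library far from the others of its group by a Dixon test, and chance alone marks about 1 group in 20. In 16p11dup-Veh library 14, Slc36a1 had 12 CPM where the others had 372 to 386 CPM, Slc3a2 had 701 CPM where the others had 274 to 315 CPM, and Slc8a1 had 1580 CPM where the others had 342 to 439 CPM. In WT-Veh library 1, Slc30a4 had 0.129 CPM (others 10.4 to 85.3 CPM), Slc35e2 had 1.03 CPM (others 30.2 to 68.5 CPM) and Slc4a1ap had 0.259 CPM (others 13.2 to 76.4 CPM). In WT-Veh library 2, Slc38a2 had 4.19 CPM (others 34.6 to 92.5 CPM) and Slc46a1 had 0.246 CPM (others 40.7 to 106 CPM). Slc25a45 had 247 CPM in WT-THC library 9 (others 89.0 to 101 CPM), Slc35a4 had 0.828 CPM in 16p11dup-THC library 18 (others 46.5 to 81.3 CPM), and Slc35e2 had 3.67 CPM in 16p11dup-THC library 20 (others 20.7 to 29.1 CPM).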

How the results depend on the processing

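For the 17 carriers under an unadjusted p of 0.05, the 26 fold changes kept their direction in all 676 values from 26 alternatives. These fold changes were picked by their p in the main fit, and 18 of the alternatives only left out 1 library. A kept direction was therefore likely from the start and is no support for them. The size of the fold changes moved. Adding the surrogate variables took Slc4a2 and Slc25a46 in 16p11dup-THC versus WT-Veh from -4.83 to -2.10 and from 3.14 to 1.14 on the log2 scale. The number of carriers under p 0.05 changed more. For WT-THC versus WT-Veh it was 1, and 2 without voom weights, without the mapped-read covariate, with the surrogate variables or with total count scaling, 3 with edgeR and 6 with DESeq2. For 16p11dup-THC versus WT-Veh it was 5, and 8 with edgeR or without voom weights and 10 with DESeq2. DESeq2 gave 11 in place of 4 for 16p11dup-THC versus WT-THC and 9 in place of 4 for the interaction, which had 2 with the surrogate variables and 7 among genes with a count in every library. The 9 of 16p11dup-THC versus 16p11dup-Veh became 5 with the surrogate variables. At an adjusted p under 0.10, limma and edgeR called 0 carriers in every comparison, whereas DESeq2 called 1 in WT-THC versus WT-Veh, 0 in 16p11dup-Veh versus WT-Veh, 3 in 16p11dup-THC versus WT-Veh, 4 in 16p11dup-THC versus WT-THC, 3 in 16p11dup-THC versus 16p11dup-Veh and 5 in the interaction; the cause was not tested. These DESeq2 calls were Slc30a5, Slc35a4, Slc39a6, Slc4a2, Slc31a2, Slc37a2, Slc35e1 and Slc22a17, with Slc39a6 in 16p11dup-THC versus 16p11dup-Veh at a log2 fold change of -5.9 (DESeq2 adjusted p = 0.0031). The shares of all genes called by DESeq2, edgeR or the other alternatives are not given here at either threshold. The counts of carriers from the alternatives therefore cannot be read against a background, nor can the named DESeq2 calls. Leaving out 1 library at a time gave 1 to 4 carriers under p 0.05 for WT-THC versus WT-Veh (4 without WT-Veh 6, 3 without WT-Veh 1 or 2 or WT-THC 11, 2 without WT-Veh 4 or 5, 16p11dup-Veh 14 or 16 or 16p11dup-THC 18). It gave 1 to 5 for 16p11dup-Veh versus WT-Veh (1 without WT-Veh 1, 5 without WT-Veh 2, 4 or 5) and 4 to 9 for 16p11dup-THC versus WT-Veh (9 without WT-Veh 6). For 16p11dup-THC versus WT-THC the range was 2 to 6 (2 without WT-THC 9), for 16p11dup-THC versus 16p11dup-Veh 5 to 14 (14 without 16p11dup-Veh 13, 5 without 16p11dup-Veh 14 or 16 or 16p11dup-THC 18 or 20), and for the interaction 4 to 7 (7 without WT-THC 9 or 16p11dup-Veh 13). With limma the count at an adjusted p under 0.10 was 0 to 0 throughout. Counting genes in at least 17 libraries would give 110 carriers in place of 87, and a minimum of 10 counts in every library 43.

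No paired analysis was made because the sources used here give no pairing of libraries between groups. Both low counts and spread between libraries limit precision: 16 of the 87 carriers had under 2 counts in some library, and 45 had an SD over 2 on the log2 scale.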
